A study of Rattus norvegicus with 18 samples.

Results

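Bacterial features that turned up in some but not all control rats, and that recurred in rats with radiation enteritis or under treatment, made up 186 of the 8405 features counted in this rat gut study. A feature is a sequence variant of the bacterial 16S rRNA gene, and its count is the number of reads assigned to it in a library. A member had a count over 0 in 1 to 4 of the 6 control libraries, in at least 4 of the 12 model and TG libraries, and in at least 1 TG library. Members were thus chosen by their presence calls in all 18 libraries, so differences between control and the other groups are given below as description, without a test. The division of a member between model and TG was not used, beyond the need for 1 TG library, and only that contrast was tested.

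The samples were intestinal contents of wild-type Rattus norvegicus, also labelled as stool, from 3 groups of 6 libraries. Control rats were untreated. Model rats had induced radiation enteritis, an inflammation of the bowel that follows irradiation. The TG rats received a therapeutic intervention, labelled TCM treatment, whose composition, dose and timing no label gives, and the labels do not state in so many words that TG rats were irradiated. Strain, age, sex, radiation dose and sampling time are likewise not given. The replicates are called biological by the series, but no label names an animal, so spread between libraries stands for spread between rats only as far as that holds.

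The 16S rRNA gene is carried by every bacterium, and its variable stretches differ between taxa, which makes amplified reads of it a census of a community. Gut communities hold a few dominant bacteria found in nearly every animal and a long list of others that come and go between animals. Irradiation is known to damage the rapidly renewing epithelium of the gut, and shifts in the resident bacteria are a recognised part of radiation enteritis. A genome can carry several 16S copies that differ slightly, so a single bacterium may yield more than 1 feature. The count table identifies features by hexadecimal codes, of which 0 occur in the deposited taxonomy table, so no member was given a taxon. Members are named here by their rank in mean share over the 18 libraries, where rank 1 is the most abundant feature.

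Library totals ran from 33076 to 40192 counts in control, 30958 to 33342 in model and 23894 to 40575 in TG. A count of 0 allows a share of up to 0.0126% in the shallowest library and 0.00739% in the deepest, counting error only. Control libraries were on the whole the deeper ones. Model 1, model 3 and TG 5 stood apart by holding 278, 198 and 276 features in all, while each other library held 446 to 1078, and results that lean on these libraries are given with and without them.

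Most members sat near the edge of the rule on both sides. In control, 77 members (41.4%) were seen in a single library, 55 in 2 libraries, 31 in 3 and 23 in 4. In model and TG together, 138 of the 186 were seen in 4 to 6 of the 12 libraries, and 8 were seen in 10 or more. The median member was found in 2 control, 2 model and 3 TG libraries. Just outside the rule lay 63 features seen in 3 in place of 4 model and TG libraries, 12 seen in 5 control libraries and 1 that lacked only a TG library. The 51 members at the limit of 4 model and TG libraries had a median mean share of 0.0147% in control, 0.0213% in model and 0.0358% in TG, and the 63 features just outside had 0.0152%, 0.0137% and 0.0287%. The 23 members seen in 4 control libraries had a median mean share of 0.0593% in control, against 0.105% for the 12 features seen in 5.

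**Figure D1:**
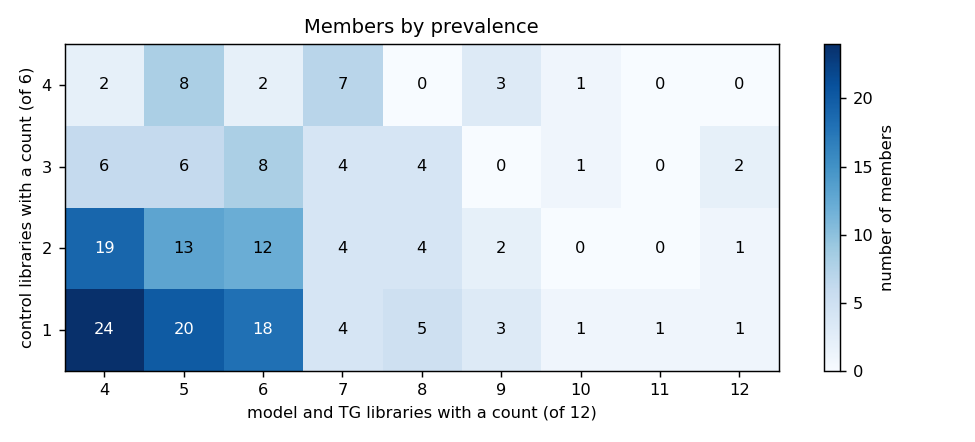
Number of members by the control libraries (vertical axis, of 6) and the model and TG libraries (horizontal axis, of 12) in which each had a count; darker cells hold more members. The fullest cells lie at the lower left, where 24 members were seen in 1 control library and in 4 model and TG libraries.

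Control libraries contributed unequally to the membership. Control 3 held 110 of the 186 members and was the only control source of 33 of them. Control 6 held 75 and was the only source of 15. The other control libraries held 41 to 57 and were the only source of 3 to 10 each. Control 3 was not rich, with 545 features in all against 446 to 710 over the control libraries, and members made up 20.2% of its features but 6.62% to 10.8% of those of the other control libraries. Without control 3, and with the rule asking for 1 to 4 of the remaining control libraries, 164 features qualified, 153 of them among the 186.

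A member that was seen at all was usually seen with more than a handful of reads. Over the 1449 positive cells the median was 27 counts, 228 cells (15.7%) held 10 counts or fewer, and 17 held 1 count. The median share where seen was 0.0656% in control, 0.0872% in model and 0.111% in TG. Among the 185 members seen in all 3 groups, the mean share over the libraries where a member was seen was higher in TG than in control for 137, higher in model than in control for 128 and higher in TG than in model for 113. Unequal depth was checked by thinning. Thinning all libraries to 23894 counts left 184 to 186 of the 186 members in 20 draws, and asking for at least 2 counts in place of 1 left 184.

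All shares are relative to the reads of a library, so more of a member and less of everything else cannot be told apart. The members together held a small part of each control library and a larger part of most others. Their summed share was 2.84% at the lowest, 4.10% at the median and 9.81% at the highest in control. In model the same values were 4.35%, 15.9% and 37.5%, and in TG they were 9.85%, 20.3% and 27.4%. Control 3 and control 6 were the high control libraries, at 9.81% and 9.63%, while the other 4 lay between 2.84% and 4.10%. Each TG library lay above every control library, though TG 5 only just, and 1 model library, model 3 at 4.35%, lay among the controls. As group means (± SD, n = 6 each), the summed share was 5.59% ± 3.24 for control, 17.9% ± 11.3 for model and 19.9% ± 6.79 for TG libraries.

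**Figure D2:**
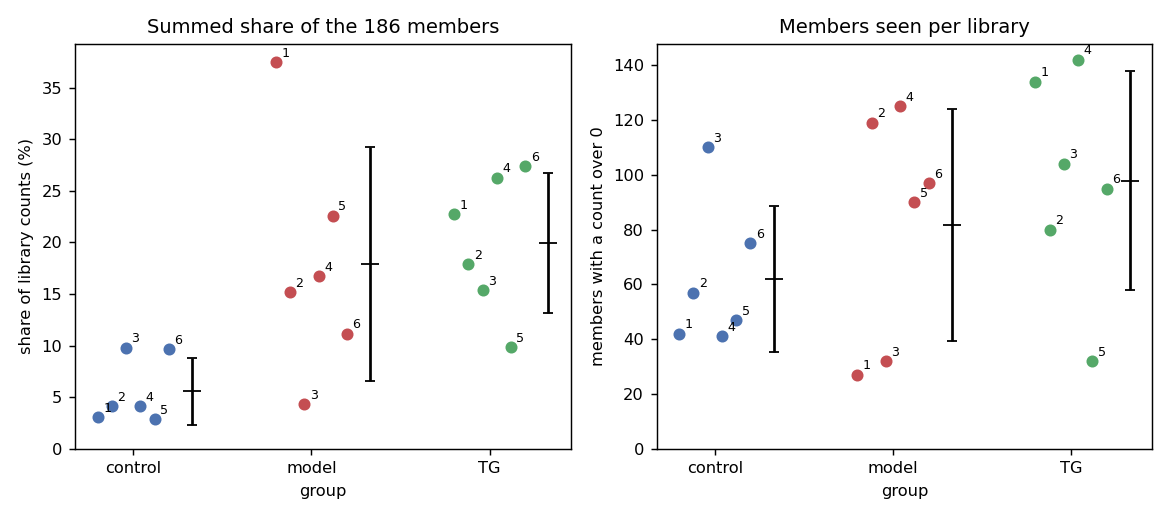
Left, share of each library's counts held by the 186 members, in percent; right, number of members with a count in each library. Points are libraries, numbered by replicate, and bars give mean ± SD (n = 6 per group). Model 1 has the highest share at 37.5% but the fewest members, 27, while TG 4 holds the most members, 142.

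Model 1 stood apart in how the number of members related to their share. It had 27 members, the fewest of all libraries, and the highest share, 37.5%. Model 3 and TG 5 had 32 members each, at 4.35% and 9.85%. TG 4 had 142, TG 1 had 134 and model 4 had 125, at 26.3%, 22.8% and 16.7%. Members seen per library averaged 62.0 ± 26.7, 81.7 ± 42.5 and 97.8 ± 39.9 in control, model and TG (SD, n = 6 each). As a part of all features seen in a library they averaged 10.7% ± 4.85, 12.8% ± 2.17 and 11.7% ± 2.25 (SD, n = 6 each). The libraries with the fewest features of all, model 3, TG 5 and model 1 (198, 276 and 278), were also those with the fewest members. Elsewhere the numbers differed: control 3 had 110 members of 545 features and control 5 had 47 of 710.

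The weight of the members differed with their prevalence in control. On the control side this follows in part from the split itself, which was made on control presence. The 77 members seen in a single control library summed to 0.743% ± 0.589 in control, 6.48% ± 4.41 in model and 9.16% ± 3.88 in TG (SD, n = 6 each). The 23 members seen in 4 control libraries summed to 1.80% ± 1.19 in control, 1.30% ± 0.773 in model and 1.97% ± 1.32 in TG (SD, n = 6 each), so in this class the group means differed by less than the spread between libraries. By mean share, 112 members were highest in TG, 48 in model and 26 in control.

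Most members were minor. In no library did 37 of them reach 0.1%, and 18 passed 1% in some library, 15 in a model library, 10 in a TG library and 1 in a control library. The 12 most abundant members held 41.8% of the summed mean share of all 186.

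**Figure D3:**
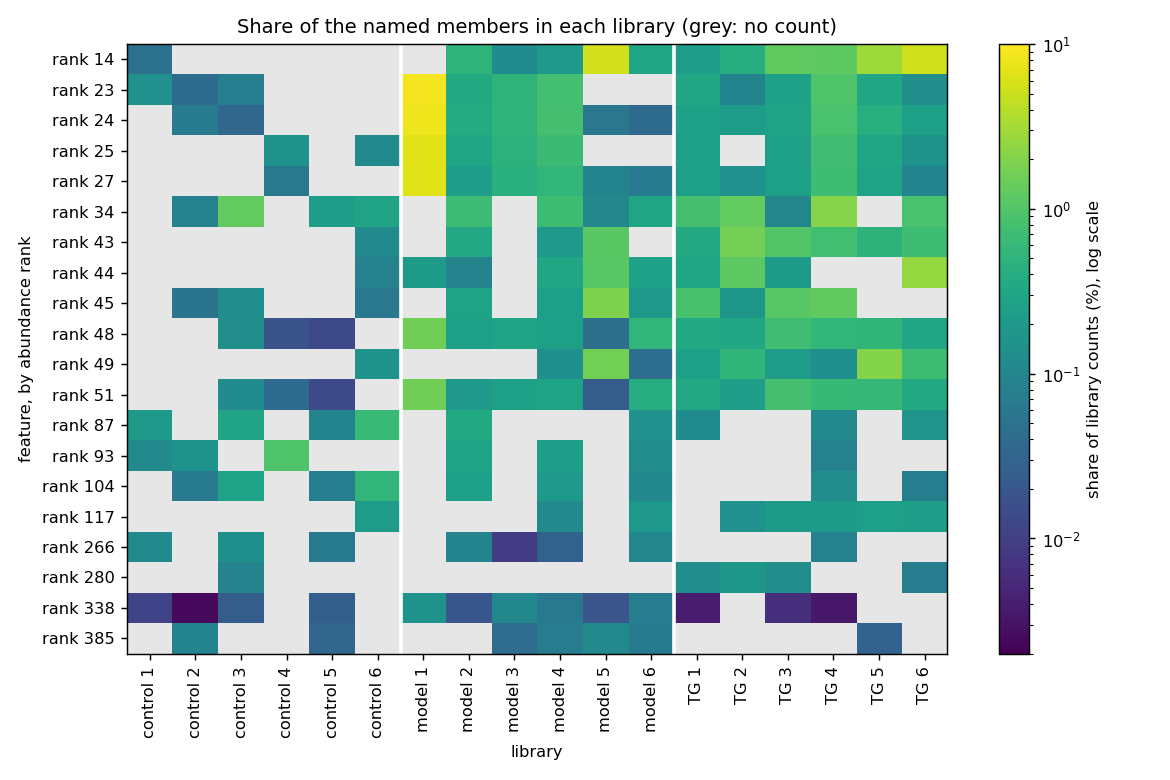
Share of library counts (color, percent, log scale) of the 20 members named by rule, in rows by abundance rank, over the 18 libraries in columns; grey marks no count. The members of rank 23, 24, 25 and 27 peak in model 1, and that of rank 14 in model 5 and TG 6.

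The member of rank 14, bc9b7a2b3c9fb93b6549f04f1384b3da, was the most abundant. It had 0.0473% of counts in control 1 and no count in any other control library. In model it ranged from no count in model 1 through a median of 0.254% to 5.67% in model 5, and in TG from 0.237% through 1.24% to 5.33% in TG 6. Each TG library and 5 of 6 model libraries thus lay above control 1, the highest control library.

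The largest set of members grouped by correlated shares comprised ranks 23, 24, 25, 27, 133 and 142. Sets were formed by average linkage at a correlation of 0.9 between square roots of shares over the 18 libraries, a description of libraries that share depth and composition. Within this set the correlations were 0.91 to 1.00. Model 1, by far the highest library, weighs heavily in these values, and correlations without it were not computed. Model 1 held 32.4% of its counts in the set, which was 86.3% of all its member counts. The other model libraries held 0.110% to 3.07%, the TG libraries 0.452% to 3.37%, and the control libraries from no count in control 5 to 0.219% in control 4. Without these 6 features the other members summed to 5.47% ± 3.22 in control, 11.4% ± 7.16 in model and 18.6% ± 6.57 in TG (SD, n = 6 each), and to 5.13% in model 1.

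Each feature of that set was sporadic in control, while the set as a whole was not. The member of rank 23, 6c63373a475dd7ff131c8cc267da3331, was seen in control 1, 2 and 3, and rank 24 in control 2 and 3. Rank 25 was seen in control 4 and 6, and rank 27 in control 4. Ranks 133 and 142 were seen in control 3 alone. As a set, 5 of 6 control libraries held the set, although no single member was in more than 3 of them. In model 5 and model 6 ranks 24 and 27 were present at 0.0397% to 0.0939% while ranks 23 and 25 had no count.

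In model 1, the highest library, the 4 leading features of the set had shares of the same order. Here they were 8.67% for rank 23, 8.06% for rank 24, 6.85% for rank 25 and 6.64% for rank 27. In TG 4, the highest TG library, they were 0.950%, 0.857%, 0.726% and 0.716%. TG 6 also held all 4, at 0.134%, 0.245%, 0.152% and 0.0938%, with rank 24 and not rank 23 the highest. In control their highest shares were 0.150%, 0.0656%, 0.159% and 0.0597%. The median shares of rank 24 were 0.444% in model and 0.271% in TG, far closer than the means of 1.64% and 0.383%, which carry model 1.

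Ranks 48 and 51 formed a tight pair, with a correlation of 0.99. Both were seen in control 3, 4 and 5 and in each model and TG library, so they are the most recurrent members together with ranks 24 and 27. Rank 48 had at most 0.136% in control, 0.0470% to 1.59% in model with a median of 0.270%, and 0.303% to 0.725% in TG with a median of 0.434%. Rank 51 had at most 0.123% in control, 0.0250% to 1.59% in model and 0.234% to 0.805% in TG. The pair was the steadiest of the abundant members under TG, at 0.949% ± 0.378, against 0.953% ± 1.13 in model and 0.0570% ± 0.101 in control (SD, n = 6 each). Each TG library held more of the pair than any control library, and model 5, at 0.0720%, fell within the control range.

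Another set held ranks 44, 54 and 63, with correlations of 0.89 to 0.98. It was highest in TG 6 at 6.87%, TG 2 at 3.16% and model 5 at 3.10%, and it had no count in model 3 and TG 5. In control it was seen in control 4 at 0.0597% and control 6 at 0.206%. Rank 44 alone had 0.0877% in control 6 as its only control count, a median of 0.232% and a maximum of 1.09% in model, and a median of 0.254% and a maximum of 2.58% in TG.

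Ranks 45 and 52 made a further pair, highest in model 5 at 3.63% and in TG 4 at 2.29% and TG 3 at 2.09%. Model 3, TG 5 and TG 6 had no count of it. It was seen in 4 control libraries at 0.0530% to 0.131%, of which rank 45 was in 3 and rank 52 in 2.

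In all, 66 of the 186 members fell into 29 such sets, 25 of them pairs. In 28 of the 29 at least 1 control library held every member of the set, the exception being the set of rank 23. In 3 sets, those of rank 23, rank 45 and rank 88, the set was seen in more control libraries than any of its members.

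**Figure D4:**
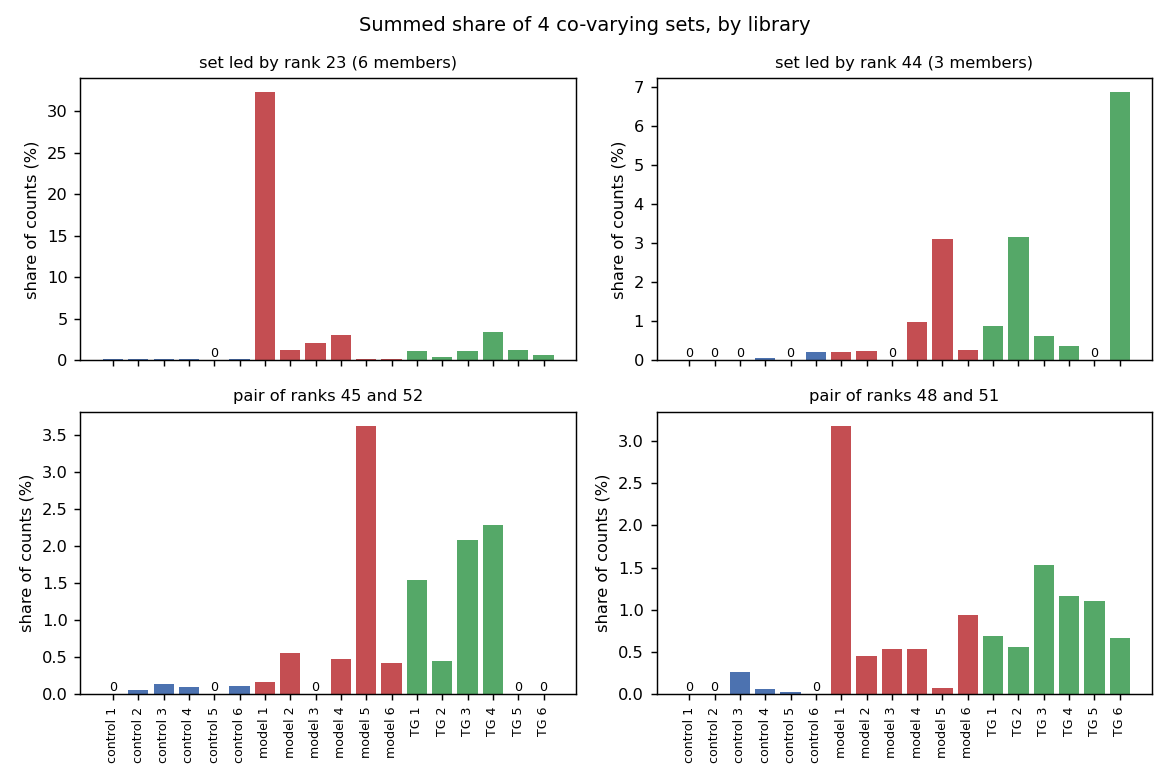
Summed share of library counts, in percent, of 4 sets of members grouped by correlated shares, with 1 bar per library (blue control, red model, green TG). A 0 is written where there was no count, and each panel has its own axis. The set led by rank 23 stands at 32.4% in model 1 and at 3.37% or less elsewhere, while the pair of ranks 48 and 51 is present in each model and TG library.

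Rank 43 and rank 49 were the abundant members with the clearest difference in prevalence between model and TG. Rank 43 was seen in 3 of 6 model and 6 of 6 TG libraries, with 0.367% to 1.69% in TG, a median of 0.0970% and a maximum of 1.13% in model, and 0.115% in control 6 as its only control count. Rank 49 was likewise seen in 3 model and 6 TG libraries, at 0.142% to 2.03% in TG and up to 1.63% in model. Its only control library was also control 6, with 0.157%. In both, model 5 was the highest model library and overlapped the TG range. The 6 model libraries counted include model 1 and model 3, which held few features of any kind (278 and 198). With all libraries the fitted log2 fold changes of TG over model were 1.22 for rank 43 and 0.60 for rank 49. Without model 1, model 3 and TG 5 they were 1.13 and -0.33.

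The leading members seen in 4 control libraries differed from each other in profile. Rank 34 was seen in 4 control libraries, with 1.29% in control 3 and at most 0.293% in the others. It reached 0.706% in model and 2.11% in TG, with medians of 0.159%, 0.207% and 0.832% in control, model and TG. Rank 87, in 4 control, 2 model and 3 TG libraries, reached 0.620% in control 6, 0.359% in model and 0.170% in TG. Rank 104, in 4 control, 3 model and 2 TG libraries, reached 0.550%, 0.245% and 0.131%. The latter pair was thus higher in control by its maxima, while the ranges of the 3 groups overlapped.

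Whether treated rats differed from untreated model rats in these features was asked of the contrast between TG and model. No member was called. edgeR's quasi-likelihood test, fitted over all 18 libraries on the 431 features that reached 10 counts in 4 or more libraries, called 0 of the 167 members that passed this filter at a Benjamini-Hochberg adjusted p under 0.05, where 1.39% of all tested features were called, each of them lower in TG. The lowest adjusted p among members was 0.149. At an unadjusted p under 0.05 there were 5 members, 1 higher and 4 lower in TG, while 10.2% of all tested features had such a p, 3.02% higher and 7.19% lower. DESeq2 and an exact permutation test of centred log-ratios also called 0 members, with 4 and 5 at an unadjusted p under 0.05. Over all tested features they called 2 and 0. Another 19 members did not pass the count filter, and without it the number called was again 0.

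The 4 members with an unadjusted p under 0.05 and a lower level in TG were ranks 23, 24, 25 and 27. The log2 fold change of rank 23 was -2.74 (SE 1.02, edgeR adjusted p = 0.149). For rank 24 it was -2.51 (SE 1.03, edgeR adjusted p = 0.193), and ranks 25 and 27 had -2.72 and -2.64. The direction of these values rests on model 1, and their size also on the scaling. With any 1 control library left out, rank 23 was at -1.74. In each of those fits, and with RLE factors, 0 members had an edgeR unadjusted p under 0.05 and a lower level in TG. Without model 1 the 4 values became 0.50, 0.48, 0.37 and 0.44, so the direction turned, and all adjusted p were 1.00. With the replicate number as a block, ranks 23 and 24 turned to 1.44 and 0.30 while ranks 25 and 27 stayed negative at -1.85 and -0.79.

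The member with a higher level in TG was rank 280, 3d90d00e964bfa80abc61f3b258ccc91. It had no count in any of the 6 model libraries, shares of 0.130%, 0.184%, 0.134% and 0.0722% in TG 1, TG 2, TG 3 and TG 6, and 0.0891% in control 3. It was the only member absent from model. Its 4 TG libraries alone brought it into the member list and past the count filter, so its difference between TG and model is a description and not evidence. It was at least 50.7-fold higher in TG against a floor of 3 counts over all model libraries. It was seen in 4 of 6 TG and 0 of 6 model libraries.

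Other members with a large excess of TG libraries did not come near a call. Rank 117 was seen in 5 TG libraries at 0.151% to 0.244%, in model 4 and model 6 at 0.117% and 0.186%, and in control 6 at 0.218%. Its log2 fold change was 1.84 (SE 2.26). In the opposite direction, rank 93 was seen in 3 control libraries at up to 0.958%, in 3 model libraries at up to 0.281% and in TG 4 alone, at 0.0850%. Its log2 fold change was -2.83 (SE 2.22). Rank 266, in 4 model libraries and 1 TG library, had -1.34 (SE 2.37), and rank 385, likewise in 4 and 1, had -3.38 (SE 2.55).

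Ranks 338 and 339 were low but orderly. Rank 339 is named after its values were seen. They correlated at 0.96, were in each model library and in 4 control libraries each, and in 3 and 4 TG libraries. Rank 338 had 0.0188% to 0.161% in model, at most 0.0260% in control and at most 0.00639% in TG, where its positive libraries held 1, 2 and 1 counts. Rank 339 had 0.0219% to 0.130% in model, at most 0.0251% in control and at most 0.0160% in TG. Ranks 338 and 339 were the 2 members whose model libraries all lay above all TG libraries. This arrangement was shown by 0.928% of tested features, and no member showed the opposite one, which 0.232% did. No TG library reached the 10 counts of the filter for either member. Both thus passed the count filter mainly through the model libraries, where they were higher. Their difference between TG and model is therefore a description and not evidence. The log2 fold changes were -4.88 (SE 2.72, edgeR adjusted p = 0.667) and -3.63 (SE 2.59, edgeR adjusted p = 1.00), so neither passed.

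**Figure D5:**
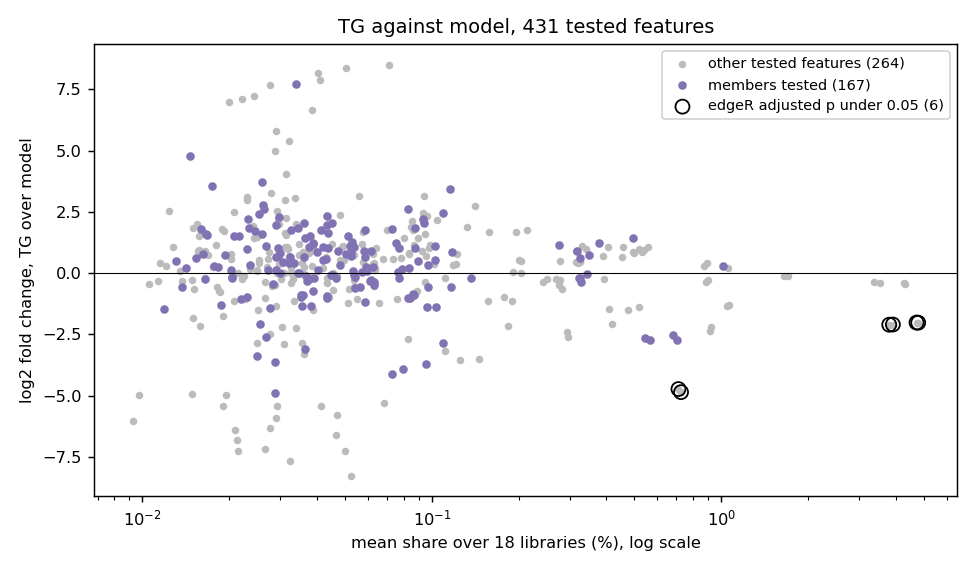
Fitted log2 fold change of TG over model (vertical axis) against mean share over the 18 libraries (horizontal axis, percent, log scale) for the 431 tested features; purple points are the 167 members tested, grey points the other 264, and open circles the 6 features called by edgeR. No member is circled, and the members scatter on both sides of 0 around a median of 0.35.

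Over the 167 tested members the median log2 fold change of TG over model was 0.35 (quartiles -0.37 and 1.21), and that of all 431 tested features was 0.34 (quartiles -0.58 and 1.12). With features absent from a whole group set at their bound, the medians were 0.35 and 0.36. By sign 104 members were higher and 63 lower in TG, so 62.3% were higher, close to the 58.7% of all tested features. That split depended on the scaling, with 127 higher and 40 lower under RLE factors, where the median of all tested features moved to 0.78. With any 1 control library left out, 124 members were higher and 43 lower, and the median of all tested features was 0.69. The summed share was 2.01 percentage points higher in TG than in model, against SDs of 11.3 and 6.79. It was 5.92 without model 1, 4.02 without TG 5, -0.71 without model 3, and 0.73, 0.51 and 0.66 without TG 4, TG 6 and model 6. The difference turned to -5.22 when library totals were multiplied by TMM factors.

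Members were detected in 490 of 1116 model cells (43.9%) and in 587 of 1116 TG cells (52.6%), a cell being 1 member in 1 library. Features of all kinds were also more numerous in TG, at 832 ± 284 per library against 646 ± 329 in model (SD, n = 6 each). More TG than model libraries held 91 members (48.9%), fewer held 46 (24.7%), and 49 were equal. Among all 379 features seen in at least 4 model and TG libraries, 47.0% were in more TG libraries and 19.5% in fewer. By Fisher's exact test on presence, 0 of the 379 passed after adjustment and 1.06% had an unadjusted p under 0.05, with 0 members in either count. The smallest p that 6 against 6 libraries allow is 0.00216, which cannot pass adjustment over 379 features unless many reach it together. The 0 calls on presence therefore say little. Without model 1, model 3 and TG 5 and by share of libraries, 93 members were more prevalent in TG and 87 less. Leaving out 1 model or TG library at a time gave 92 to 133 more prevalent and 49 to 89 less prevalent. The closest split came without model 1 and the widest without TG 5. With unequal numbers of libraries members can rarely tie, so most of the 49 equal members have to fall on a side. These splits therefore cannot show whether the excess in TG depends on the libraries left out. The members seen per library are plainer. Model 1, model 3 and TG 5 held 27, 32 and 32. The other model libraries held 90 to 125 and the other TG libraries 80 to 142, so without these libraries the groups overlapped widely.

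The neighbouring classes give the scale. The 132 features that met the same recurrence rule with no count in control summed to 11.4% ± 13.7 in model and 21.1% ± 6.41 in TG (SD, n = 6 each). The 60 features seen in 5 or 6 control libraries summed to 75.8% ± 4.77 in control, 55.2% ± 23.6 in model and 34.1% ± 18.4 in TG (SD, n = 6 each). All 6 features called between TG and model belonged to the latter class, whose median log2 fold change was -0.34, against 0.35 for the members and 0.64 for the 112 tested features absent from control. Whether these medians differ was not tested. The number of calls over all tested features depended on the setting. It was 0 with RLE factors and with TG and model alone, and 2 with DESeq2 and without model 3. The exact permutation test also gave 0, with the limit stated above.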

How the data were processed

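The deposited table holds whole-number read counts per feature in 18 libraries, and its header line names a BIOM file as origin. Per the series' design text, reads were denoised and clustered by the authors. The denoiser, its version, trimming, chimera removal and filters are unstated in the labels and headers. These steps decide how many features a bacterium yields and how few reads can make one visible. The counts were used as deposited, and columns were matched to samples by title. The taxonomy table was not used, since its identifiers do not pair with those of the count table.

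Membership, prevalence and shares of library counts were computed in Python 3.11.15 with pandas 2.3.3, numpy 2.4.6 and scipy 1.17.1. TG was compared with model by edgeR 4.0.16 in R 4.3.3 (TMM factors, glmQLFit and glmQLFTest, all 18 libraries, features reaching 10 counts in 4 or more libraries), with Benjamini-Hochberg adjustment over the 431 features tested. SE is the log2 fold change over the square root of F. Presence was compared by two-sided Fisher's exact tests. Library sizes in the fit were totals over the features tested. Alternatives were RLE factors, DESeq2 1.42.0, no count filter, TG and model only, the replicate number as a block, each library left out, thinning to 23894 counts, a limit of 2 counts, and an exact permutation test over all 924 splits on centred log-ratio values (pseudocount 0.5). Bounds used a floor of 3 counts over a group. The fit was also run on simulated data with known changes. Its outcome is not given here, so the size of change that the fit could detect is left unstated. Bounds and floors take in counting error alone, since PCR reads lacking molecular identifiers do not count molecules.

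Named members are the 12 of highest mean share, those called, the 4 with the largest excess of libraries in either direction, the 3 leading members seen in 4 and in 1 control libraries, and the 3 leading members seen in all 12 model and TG libraries, 20 in all. The members and lists were chosen with earlier results of these data known.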

Additional observations from a re-analysis of the deposited data

Results flagged for a closer look

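A library stood far from the others of its group in 30 of 65 group values examined, by the size of its gap to the next library over the group's range. Chance flags about 1 in 20 such groups when values are normally distributed, and the rate for shares with many zeros was not worked out. A feature seen in 1 library of a group is always flagged. All flagged libraries were the highest of their group.

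In model, model 1 was far above the next library for rank 23 (8.67%, next 0.783%), rank 24 (8.06%, next 0.807%), rank 25 (6.85%, next 0.672%), rank 27 (6.64%, next 0.545%), rank 48 (1.59%, next 0.537%) and rank 51 (1.59%, next 0.403%). Model 5 was far above the next for rank 14 (5.67%, next 0.504%), rank 43 (1.13%, next 0.339%), rank 44 (1.09%, next 0.311%), rank 45 (1.90%, next 0.278%) and rank 49 (1.63%, next 0.142%). Thus 2 libraries carried all 11 flags in model, each for features of its own.

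In TG, TG 4 stood out for rank 23 (0.950%), rank 24 (0.857%) and rank 27 (0.716%), and was the only TG library with rank 93 or rank 266 (0.0850% each). TG 5 stood out for rank 49 (2.03%) and was the only TG library with rank 385 (0.0296%).

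In control, control 6 was the only library with rank 43 (0.115%), rank 44 (0.0877%), rank 49 (0.157%) and rank 117 (0.218%). Control 3 stood out for rank 34 (1.29%), rank 48 (0.136%) and rank 51 (0.123%), and was the only control library with rank 280 (0.0891%). Control 4 stood out for rank 93 (0.958%) and was the only one with rank 27 (0.0597%). Control 1 was the only one with rank 14 (0.0473%), and control 2 stood out for rank 385 (0.0933%).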

How the results depend on the processing

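The number of members called between TG and model was 0 in each alternative run, including RLE factors, DESeq2, no count filter, TG and model alone, the replicate block, the exact permutation test and each library left out (0 to 0), although members at an unadjusted p under 0.05 numbered 1 to 13. On presence the number called was 0 in each alternative, and 0 to 0 with a library left out. The exact permutation test and the test on presence could hardly yield a call, as stated above. The number of members was 184 with at least 2 counts and 185 on average after thinning. The summed share difference of TG over model ranged from -0.71 to 5.92 percentage points with a library left out, all within 1 SD of libraries (9.35), and was 5.87 with the tested features as denominator and 5.52 without model 1, model 3 and TG 5, an alternative chosen after seeing the data, as was leaving control 3 out of the rule. The replicate numbers showed no sign of pairing the libraries: deviations of same-numbered model and TG libraries correlated at -0.29 to 0.13. Such values cannot settle whether the libraries were paired by design.

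No named member was called under any setting, but uncalled log2 fold changes turned sign in 60 of 480 settings of the 20 named members; unless a value shows otherwise, the cause was not tested. With the replicate block, rank 23 was at 1.44, rank 24 at 0.30, rank 44 at -0.28, rank 45 at 1.42 and rank 87 at 2.03. Without model 1, model 3 and TG 5, ranks 23, 24, 25, 27, 48, 49 and 51 were at 0.62, 0.51, 0.48, 0.56, 1.09, -0.33 and 1.40. Ranks 48, 51 and 87 were at 0.44, 0.59 and 0.54 with RLE factors and 0.44, 0.59 and 0.55 with DESeq2. With TG and model alone, ranks 45, 48 and 51 were at 0.31, 0.41 and 0.59, and without a count filter ranks 45 and 51 were at 0.26 and 0.077. With 1 library left out, the ranges were -0.34 to 3.02 for rank 14, -3.48 to 0.50 for rank 23, -3.00 to 0.48 for rank 24, -3.38 to 0.37 for rank 25, -3.24 to 0.44 for rank 27, -0.34 to 1.86 for rank 44, -0.57 to 1.91 for rank 45, -0.76 to 1.15 for rank 48, -0.61 to 1.46 for rank 51 and -1.10 to 1.11 for rank 87.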

Other observations

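Several sets of members outside the naming rule had profiles of their own, given here as values chosen after they were seen. Ranks 88 and 92 were seen in control 2, 3 and 4 between them, in model 6 alone among model libraries, and in TG 1, TG 2 and TG 4, where they summed to 0.762%, 0.335% and 2.09%. Ranks 93 and 106 were highest in control 4, at 1.82% together, and in 3 model libraries at 0.262% to 0.581%. In TG they were seen in TG 2 and TG 4 at 0.0460% and 0.0850%. Ranks 167, 332, 336 and 345 were seen in control 3 alone among controls, at 0.109% together, and were highest in TG 6 at 1.00% and TG 1 at 0.687%.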
